A study of Mus musculus with 8 samples.

Results

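The respiratory chain was described here through the genes of its subunits, in RNA from samples given as mouse articular cartilage. Members were the protein-coding genes of the GENCODE M21 annotation (GRCm38 build) whose symbols name a subunit of complex I (mt-Nd, Nduf), complex II (Sdh), complex III (mt-Cytb, Uqcr), complex IV (mt-Co, Cox4 to Cox8) or complex V (mt-Atp, Atp5). Of 97 symbols that matched, 1 nuclear-encoded gene was left out, which gave 96 members of 21819 protein-coding genes in the deposited tables: 13 encoded by the mitochondrial genome and 83 by the nuclear genome. A TPM over 1 in at least 1 library was reached by 13 of 13 mitochondrial-encoded and 81 of 83 nuclear-encoded members, and 12538 protein-coding genes passed the same filter. The pattern also takes in Atp5s, a coupling factor gene rather than a core subunit, and it passes over Cyc1 and Ndufab1, whose symbols have another form. Ndufa4 and Ndufa4l2 were counted with complex IV, where the NDUFA4 protein is a subunit.

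Wild type (WT) mice and mice that lack Oscar, the osteoclast-associated receptor gene (Oscar-/-), had sham surgery or destabilization of the medial meniscus (DMM), which makes the knee unstable and leads to osteoarthritis. The animals were male, on the C57BL/6 background, and given as 10 weeks old. RNA of tissue given as articular cartilage was sequenced 2 and 4 weeks after surgery. There was 1 library for each of the 8 combinations of genotype, surgery and week, with 10 combined cartilages in each library. Totals were 13189181 to 18533609 expected counts per library. Values of the 8 libraries are given below with the WT pair first and the Oscar-/- pair after it, sham before DMM in each pair, and with the 2-week values ahead of the 4-week values.

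Oscar had 42 to 118 expected counts in the 4 WT libraries and 0 in the 4 Oscar-/- libraries. The tissue label was checked against its markers: 15 chondrocyte genes together held 0.104 to 0.291% of all TPM (a level per transcript length, scaled to the same total in each library), from Prg4 (lubricin of the joint surface, 410 to 838 TPM), Chad (315 to 1304 TPM), Comp (129 to 336 TPM) and Col2a1 (type II collagen, 59.5 to 209 TPM) down to Matn1 (at most 0.44 TPM), while 4 hemoglobin genes held 26.5 to 37.7%. The 12 neutrophil markers held 6.82 to 11.04% of all TPM. The 8 osteoblast markers held 0.1995 to 0.3994%, above the chondrocyte markers in each library. Hemoglobin, neutrophil and osteoblast genes thus outweighed the chondrocyte markers, so the libraries hold much RNA of blood cells and are not of chondrocytes alone. In tissue of this make-up, fewer cells of a type and less RNA per cell cannot be told apart. All 2-week libraries were sequenced on 1 lane, the WT libraries of 4 weeks on another and the Oscar-/- libraries of 4 weeks on the last of 3. Week and lane therefore cannot be told apart. Within the 4-week libraries, genotype and lane cannot be told apart either. With no second library in any combination, the tests of genotype, surgery and week below compare groups of 4 libraries in an additive model. Their p-values measure the spread left after the terms for genotype, surgery and week. The genotype by surgery test adds that term, with 1 library per week in each combination of genotype and surgery. Its p-values measure the spread left after that term as well.

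The respiratory chain passes electrons from NADH and succinate to oxygen and pumps protons across the inner mitochondrial membrane, and ATP synthase (complex V) uses the proton gradient to make ATP. Its core hydrophobic subunits are encoded by the mitochondrial genome, which is transcribed as long precursors that are cut into single messages, whereas all other subunits, and the whole of complex II, are encoded in the nucleus and imported. Chondrocytes live in a poorly perfused matrix and rely largely on glycolysis, and mature red cells have no mitochondria, so the RNA of both genomes in this tissue is a mixture over cell types.

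Several mitochondrial-encoded genes have near-perfect copies in the nuclear genome, and these sequences decide which of the deposited values can be read as they stand. On chromosome 1 of GRCm38, on the minus strand, 7 unprocessed pseudogenes lie within chr1:24611535-24616197. Gm28437 is identical to mt-Co3 over 783 of the 784 bases of the mitochondrial transcript. Gm28661 is identical to mt-Co2 over 681 of 684 bases, Gm10925 to mt-Atp6 over 678 of 681 bases, Gm10222 to mt-Nd4l over 294 of 297 bases, and Gm28439 to the first 876 bases of mt-Nd4. Gm28438 matches mt-Nd3 over 345 of 348 bases with 1 mismatch, and Gm29216 matches the last 483 bases of mt-Co1 with 1 mismatch. The windows below show how little separates a mitochondrial transcript from its copy. Each pair is printed 5′ to 3′ on the transcript strand, and the capital marks the only base that differs (T3C for mt-Nd3 against Gm28438, A1066T for mt-Co1 against Gm29216, counted from 1 at the 5′ end of the mitochondrial transcript). The mt-Co3 pair, from the 3′ end of the match, has no difference.
mt-Nd3 (chrM:9459-9481, plus strand): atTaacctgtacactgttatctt
Gm28438 (chr1:24613097-24613119, minus strand): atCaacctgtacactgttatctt
mt-Co1 (chrM:6390-6413, plus strand): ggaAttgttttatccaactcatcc
Gm29216 (chr1:24616165-24616188, minus strand): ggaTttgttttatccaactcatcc
mt-Co3 (chrM:9349-9389, plus strand): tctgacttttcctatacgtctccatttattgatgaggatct
Gm28437 (chr1:24613189-24613229, minus strand): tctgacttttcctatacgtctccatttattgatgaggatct

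In the deposited tables most reads of these sequences were assigned to the copies. Gm28661 held 98.3 to 99.4% of the counts it shares with mt-Co2, Gm10925 held 91.7 to 97.3% of those shared with mt-Atp6, and Gm28437 held 89.0 to 98.7% of those shared with mt-Co3. For the shorter genes the share ran from 67.8 to 84.8% (mt-Nd3) and from 33.6 to 66.9% (mt-Nd4l), for mt-Co1 from 16.3 to 23.8%, and for mt-Nd4 it was at most 0.02%. Over all 13 genes, the copies took 40.3 to 48.5% of the reads. The deposited level of mt-Co3, the third core subunit of cytochrome c oxidase, was 285, 493, 252 and 380 TPM at 2 weeks and 1147, 477, 1173 and 1080 TPM at 4 weeks. With Gm28437 added, the level was 14983, 18251, 19410 and 18294 TPM at 2 weeks and 10527, 10150, 11179 and 9840 TPM at 4 weeks. The 4-week libraries were mostly the higher ones before the addition, and all 4 lay below the 2-week libraries after it. Reads of a mitochondrial gene and of an identical copy cannot be told apart by sequence. Group medians of the edgeR tests and of DIF on TPM, shares of all TPM and ratios are therefore given below in both ways, as deposited and with copies added. That choice was made after the data were seen, and other values are as deposited unless marked.

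**Figure D1:**
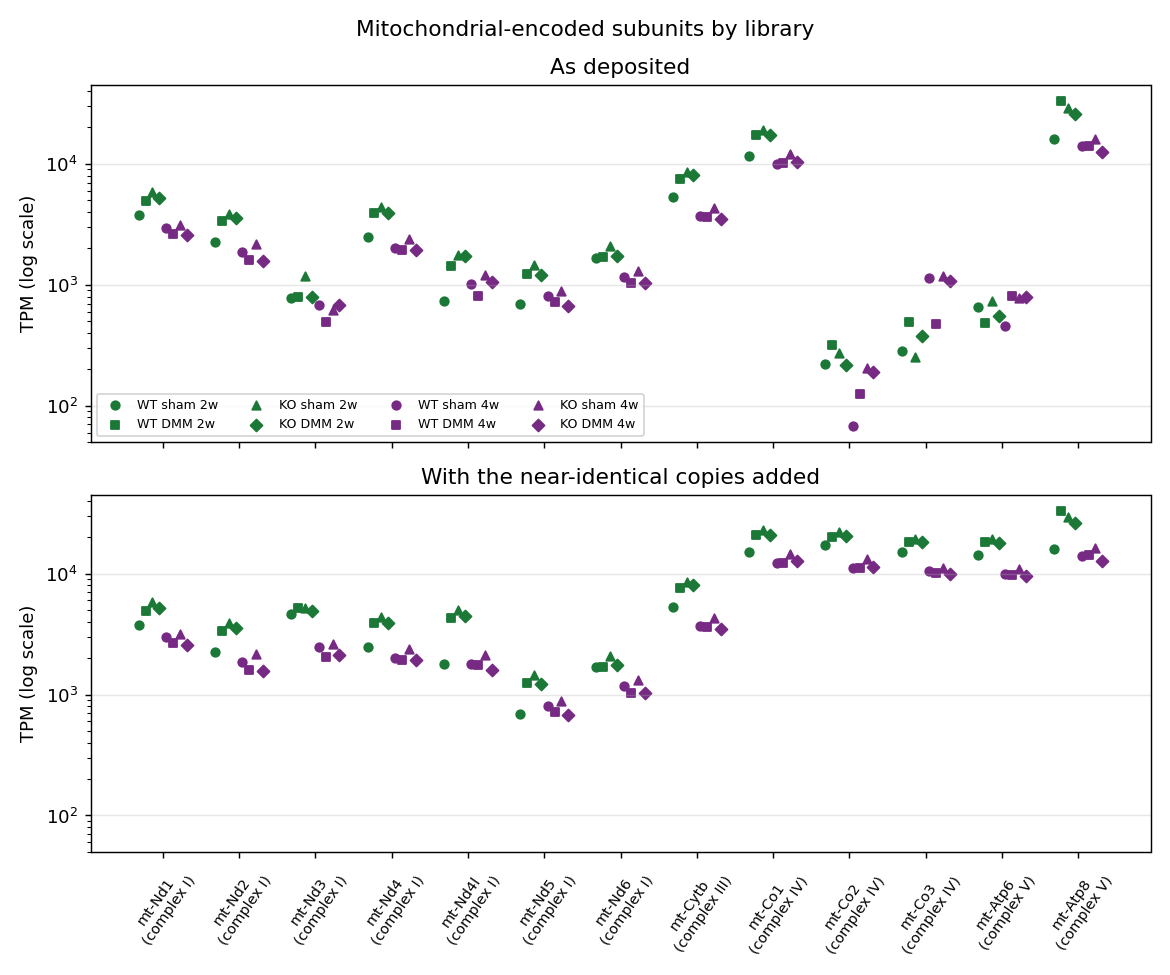
TPM (log scale) of the 13 mitochondrial-encoded subunit genes in each of the 8 libraries, as deposited (top) and with the reads of near-identical copies added (bottom); green marks 2 weeks, purple marks 4 weeks, and the symbol gives genotype and surgery. As deposited, mt-Co2, mt-Co3 and mt-Atp6 lie at or below 1173 TPM and mt-Co3 is mostly higher at 4 weeks; with copies added all 3 lie at or above 9624 TPM, with the 4-week libraries below the 2-week libraries.

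With copies added, the levels per length of the mitochondrial-encoded genes formed an order by complex. The subunits of cytochrome c oxidase, mt-Co1 (12167 to 22885 TPM), mt-Co2 (11052 to 22117 TPM) and mt-Co3 (9840 to 19410 TPM), and mt-Atp6 of the ATP synthase proton channel (9624 to 19272 TPM), had overlapping ranges. The cytochrome b gene mt-Cytb followed with 3491 to 8563 TPM. The complex I genes were lower, from mt-Nd1 (2565 to 5815 TPM) down to mt-Nd5 (672 to 1461 TPM), and the ranges of mt-Nd2, mt-Nd3, mt-Nd4 and mt-Nd4l overlapped. The deposited level of mt-Atp8, 12583 to 32968 TPM, had the highest mean, but this gene of 204 bases was divided by a mean effective length of 53.8 bases, and 43 of its bases overlap mt-Atp6. mt-Nd6, the 1 member on the other strand of the mitochondrial genome, had 1032 to 2087 TPM. Whether strand was used in counting is not given in the sources used here, so reads from the opposite strand may be in its value.

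The nuclear-encoded subunits were much lower per length and differed little between libraries. Their median over all 83 members was 110 TPM as a mean of the 8 libraries. For the 81 members past the filter, the median coefficient of variation across libraries was 7.82% on TPM, against 32.6% for the mitochondrial-encoded members. Over genes with at least 50 counts in every library, the coefficient was 7.55% for 77 nuclear-encoded members and 17.7% for all 10836 genes tested. That order depends on the scale: on counts scaled by TMM (the trimmed mean of M-values, which sets most genes to no change), it was 12.1% for the nuclear-encoded members and 10.8% for all genes.

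By complex, the median level of nuclear-encoded members was 79.2 TPM in complex I, 61.0 TPM in complex II, 176 TPM in complex III, 175 TPM in complex IV and 218 TPM in complex V. In complex I the levels ran from Ndufa11 (11.8 TPM), an accessory subunit of the membrane arm, to Ndufb8 (161 TPM), and in complex II from Sdhc (45.3 TPM), a membrane anchor, to Sdhd (99.5 TPM), the other anchor. Complex III ran from Uqcrfs1 (63.0 TPM), the Rieske iron-sulfur protein, to Uqcrh (400 TPM), the hinge protein. In complex V Atp5b (529 TPM), the catalytic beta subunit, was the highest nuclear-encoded member and Atp5s (10.2 TPM) the lowest of that complex. In complex IV Cox8a was the highest with 392 TPM and, of members past the filter, Cox8b the lowest with 3.40 TPM. The genes Cox7b2 and Cox8c, known from testis, did not pass: Cox7b2 had 0 counts in all 8 libraries, which allows up to 3 counts in each, and Cox8c had 1 count in 1 library. Subunit c of the ATP synthase ring is encoded by Atp5g1, Atp5g2 and Atp5g3, with means of 118, 154 and 238 TPM, and Atp5g1 held 20.6 to 24.99% of their sum. Some nuclear-encoded members also have copies: Ndufb4c, identical to Ndufb4 over 390 bases, was listed at 60.3 to 84.7 TPM where Ndufb4 itself had a mean of 35.5 TPM.

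The summed level of mitochondrial-encoded members exceeded that of nuclear-encoded members in every library. As deposited, the mitochondrial-encoded share of all TPM was 4.63, 7.64, 7.87 and 7.06% at 2 weeks and 4.00, 3.85, 4.65 and 3.80% at 4 weeks. The nuclear-encoded share was 1.17, 1.13, 1.11 and 1.16% at 2 weeks and 1.26, 1.23, 1.148 and 1.14% at 4 weeks. The nuclear-encoded share was within 1.11 to 1.26% throughout, while the deposited mitochondrial-encoded share ranged from 3.80 to 7.87%. With copies added, the mitochondrial-encoded share was 11.2, 15.5, 16.2 and 14.9% at 2 weeks and 8.21, 7.92, 9.22 and 7.89% at 4 weeks.

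On the log2 scale, the ratio of the summed levels was 1.99, 2.75, 2.83 and 2.601 at 2 weeks and 1.67, 1.65, 2.02 and 1.73 at 4 weeks. The highest 4-week library, Oscar-/- sham, and the lowest 2-week library, WT sham, overlapped. With copies added, the log2 ratio was 3.09, 3.64, 3.74 and 3.54 at 2 weeks and 2.56, 2.56, 2.87 and 2.63 at 4 weeks, and the weeks no longer overlapped. The WT sham library of 2 weeks, the lowest of its week on this ratio, also had the highest hemoglobin share of all libraries (37.7% of TPM). When TPM was taken over all genes but hemoglobin, its mitochondrial-encoded share was 7.44%, against 10.8 to 11.6% in the other 2-week libraries and 5.57 to 6.32% at 4 weeks. mt-Atp8, with its short effective length, made up 33.1 to 43.2% of the deposited mitochondrial-encoded sum. Without it the deposited log2 ratio was 1.38, 1.94, 2.16 and 1.94 at 2 weeks and 1.04, 0.99, 1.40 and 1.15 at 4 weeks.

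**Figure D2:**
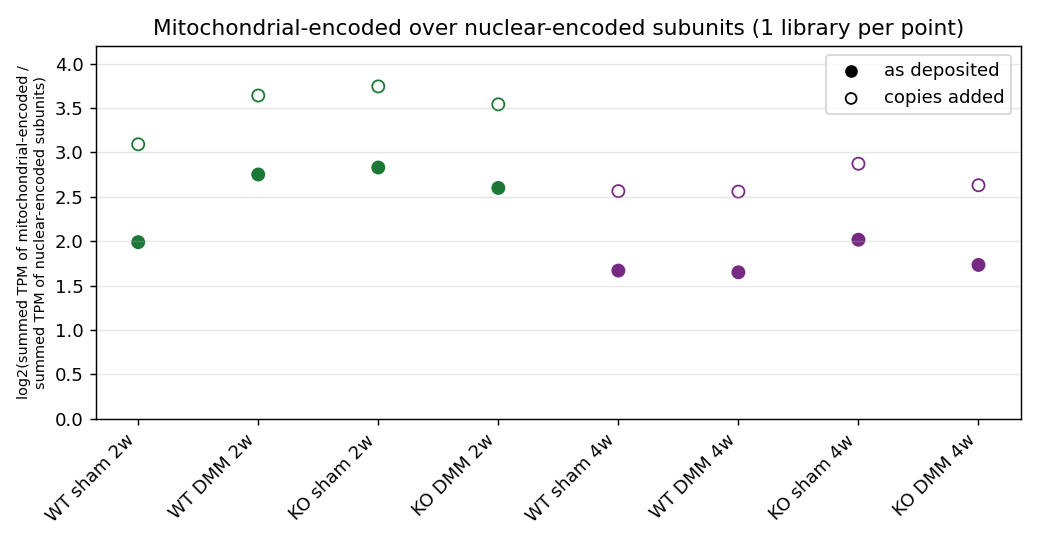
Log2 ratio of the summed TPM of mitochondrial-encoded to nuclear-encoded subunit genes in each library (filled, as deposited; open, near-identical copies added; green, 2 weeks; purple, 4 weeks). The open points of 4 weeks, 2.56 to 2.87, lie below those of 2 weeks, 3.09 to 3.74; the filled points of the weeks overlap.

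Between weeks, mitochondrial-encoded genes of all 4 complexes that hold them were lower at 4 than at 2 weeks. In edgeR's quasi-likelihood test with Benjamini-Hochberg adjustment over 12538 genes, 10 of the 13 fell and 1, mt-Co3, rose, while 4 of 81 nuclear-encoded members fell and none rose. In the same comparison 2.35% of all genes tested were called lower and 5.58% were called higher. With copies added, 13 of 13 mitochondrial-encoded members were called lower, where 2.38% of all genes were. The median log2 fold change of the 13 was -0.88 as deposited and -1.03 with copies added, and that of all genes tested -0.02. The nuclear-encoded median was -0.16 there but 0.08 on log2(TPM + 1), where all genes had 0.23, so it lay below all genes on both scales, by 0.14 and 0.15.

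mt-Cytb, the mitochondrial-encoded subunit of complex III, had 5296, 7557, 8563 and 8033 TPM at 2 weeks and 3699, 3611, 4293 and 3491 TPM at 4 weeks. All 4 libraries of 4 weeks lay below the lowest of 2 weeks, and the fitted log2 fold change was -1.22 (SE 0.12, adjusted p = 0.000624 by edgeR). mt-Nd6, a complex I subunit, had 1675, 1702, 2087 and 1744 TPM at 2 weeks and 1170, 1032, 1307 and 1033 TPM at 4 weeks. These ranges did not overlap either, and its log2 fold change was -0.88 (SE 0.08, adjusted p = 0.000624 by edgeR). mt-Nd1, which helps form the quinone site of complex I, fell from 3788, 4911, 5815 and 5228 TPM to 2970, 2652, 3151 and 2565 TPM, a log2 fold change of -1.05 (SE 0.11, adjusted p = 0.000782 by edgeR).

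The complex I genes mt-Nd2 and mt-Nd4 also fell, by 1.11 and 1.08 on the log2 scale, and neither overlapped between weeks. mt-Nd5 (-0.83) and mt-Co1 (-0.89), the catalytic subunit of cytochrome c oxidase, fell with ranges that overlapped on deposited TPM, as the WT sham library of 2 weeks had 689 TPM of mt-Nd5 and 11573 TPM of mt-Co1. mt-Atp8 fell by 0.59 on the log2 scale (SE 0.14, adjusted p = 0.0351 by edgeR), the smallest change of the mitochondrial-encoded genes called lower. As deposited, 7 of 13 mitochondrial-encoded members had all 4-week libraries below all 2-week libraries on TPM, where 0.542% of all genes did, and 10 of 13 did with copies added. mt-Nd4l, mt-Nd5 and mt-Atp8 were the ones that overlapped.

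For the genes with copies, the deposited values and the sums differed most. mt-Co3 had a log2 fold change of 1.22 (SE 0.31, adjusted p = 0.0426 by edgeR) as deposited and -1.01 (SE 0.11, adjusted p = 0.00104) with Gm28437 added. mt-Atp6 moved from -0.02 to -1.03 and mt-Nd4l from -0.45 to -1.07, and mt-Nd3 from -0.61 to -1.23. mt-Co2 had 220, 317, 274 and 218 TPM at 2 weeks and 67.9, 126, 205 and 189 TPM at 4 weeks as deposited, and its log2 fold change was -1.13 (SE 0.27) as deposited and -1.02 (SE 0.11) with Gm28661 added. Each of the 5 was called lower once the copies were added, and its standard error was smaller than before for all but mt-Nd4l.

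The drop did not rest on 1 library. With copies added, 12 or 13 of the 13 genes were called lower when any 1 of the 8 libraries was left out, and mt-Atp8 was the only gene that lost its call. With limma on log2(TPM + 1) and copies added, 12 of 13 were called lower, with mt-Nd5 at an adjusted p of 0.0781. The TPM scale itself moved the median of all genes between weeks to 0.23, and the deposited mitochondrial-encoded members stood 0.90 below that median, against 0.86 below it in the main test. Without a copy correction, leaving out the WT sham library of 4 weeks lowered the number of mitochondrial-encoded genes called lower from 10 to 6.

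Other cell types also differed between weeks. Of all 12538 genes tested, 3409 had an unadjusted p under 0.05 in this comparison. edgeR called 295 of all genes lower and 700 higher, DESeq2 374 lower and 647 higher, and limma on log2(TPM + 1) 35 lower and 2003 higher. Of 8 B cell markers, 6 were called lower at 4 weeks, and their summed level was 0.0272 to 0.0372% of TPM at 2 weeks and 0.0244 to 0.0303% at 4 weeks. edgeR called 0 of 12 neutrophil markers, with 3 at an unadjusted p under 0.05, while DESeq2 called 3 and limma 7 of them higher, with sums of 6.82 to 9.56% at 2 weeks and 8.84 to 11.04% at 4 weeks, and 1 of 14 chondrocyte markers was called lower. Of 10 fibroblast markers, edgeR called 2 lower and 2 higher, with 9 at an unadjusted p under 0.05 and a median log2 fold change of -0.56, and their sums were 0.0845 to 0.212% at 2 weeks and 0.0833 to 0.186% at 4 weeks. It also called 1 of 6 endothelial markers lower and 1 of 7 macrophage and osteoclast markers higher. No marker of these lists was at 0 in all libraries. Their part in the change of the mitochondrial-encoded genes was not tested.

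The genes of the machinery around the chain did not show a change of the size seen in the mitochondrial-encoded genes. The counts over all genes in this comparison are those given with the cell markers above. Of 26 tested genes for mitochondrial transcription and RNA, such as Tfam and Polrmt, 0 were called between weeks by edgeR and by DESeq2, 6 had an unadjusted p under 0.05, limma on log2(TPM + 1) called 3 higher, and the median log2 fold change was -0.08. Of 78 mitochondrial ribosomal proteins, edgeR called 3 lower (median -0.21) and limma 2 higher and 0 lower (median 0.07). Of 45 assembly factors, edgeR called 1 lower (median -0.15) and limma 2 higher and 0 lower (median 0.12). Of 13 enzymes of the TCA cycle 0 were called by edgeR, DESeq2 or limma, with 6 at an unadjusted p under 0.05 (median -0.18). Of 15 glycolysis genes, edgeR called 1 lower (median -0.09), DESeq2 2 lower and limma 0. For cytochrome c (Cycs) and its complex III partner Cyc1, edgeR and DESeq2 each called 1 of 2 lower and limma 0. The lower of their 2 log2 fold changes was -0.44. Among 7 regulators of nuclear mitochondrial genes that passed the filter, such as Nrf1 and Gabpa, edgeR and DESeq2 called 0 and limma called 1 higher, with 1 at an unadjusted p under 0.05 (median 0.02).

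Of the nuclear-encoded subunits, 4 fell between weeks by edgeR, and DESeq2 called 9 lower. With limma on log2(TPM + 1), where 0.279% of all genes were called lower and 16% higher, 1 of the 4 kept its call, Ndufa4l2 (adjusted p = 0.049). Atp5j, coupling factor 6 of the ATP synthase stalk, had 237, 234, 229 and 231 TPM at 2 weeks and 203, 199, 207 and 202 TPM at 4 weeks, without overlap, and a log2 fold change of -0.38 (SE 0.09, adjusted p = 0.0368 by edgeR; 0.195 with limma). Ndufv2, the 24-kDa iron-sulfur subunit of complex I, had 82.9 to 90.6 TPM at 2 weeks and 80.1 to 83.6 TPM at 4 weeks. Its log2 fold change was also -0.38 (adjusted p = 0.0447 by edgeR), but it was -0.07 with limma on log2(TPM + 1). The other genes were Ndufa4l2 and Cox4i2, described with the tissue-restricted isoforms below. In the opposite direction on TPM, Sdhc had 31.3 to 42.2 TPM at 2 weeks and 47.9 to 59.7 TPM at 4 weeks without overlap, as did 17 of 81 nuclear-encoded members, where 27.9% of all genes did. On TMM-scaled counts the order was the opposite: 0 of 81 nuclear-encoded members had all 4-week libraries above those of 2 weeks, where 10.6% of all genes did, and 20 of 81 had them below, where 8.09% did. edgeR and DESeq2 called no nuclear-encoded member higher, and limma called 1, Sdhc (0.51 on the log2 scale, adjusted p = 0.0257).

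**Figure D3:**
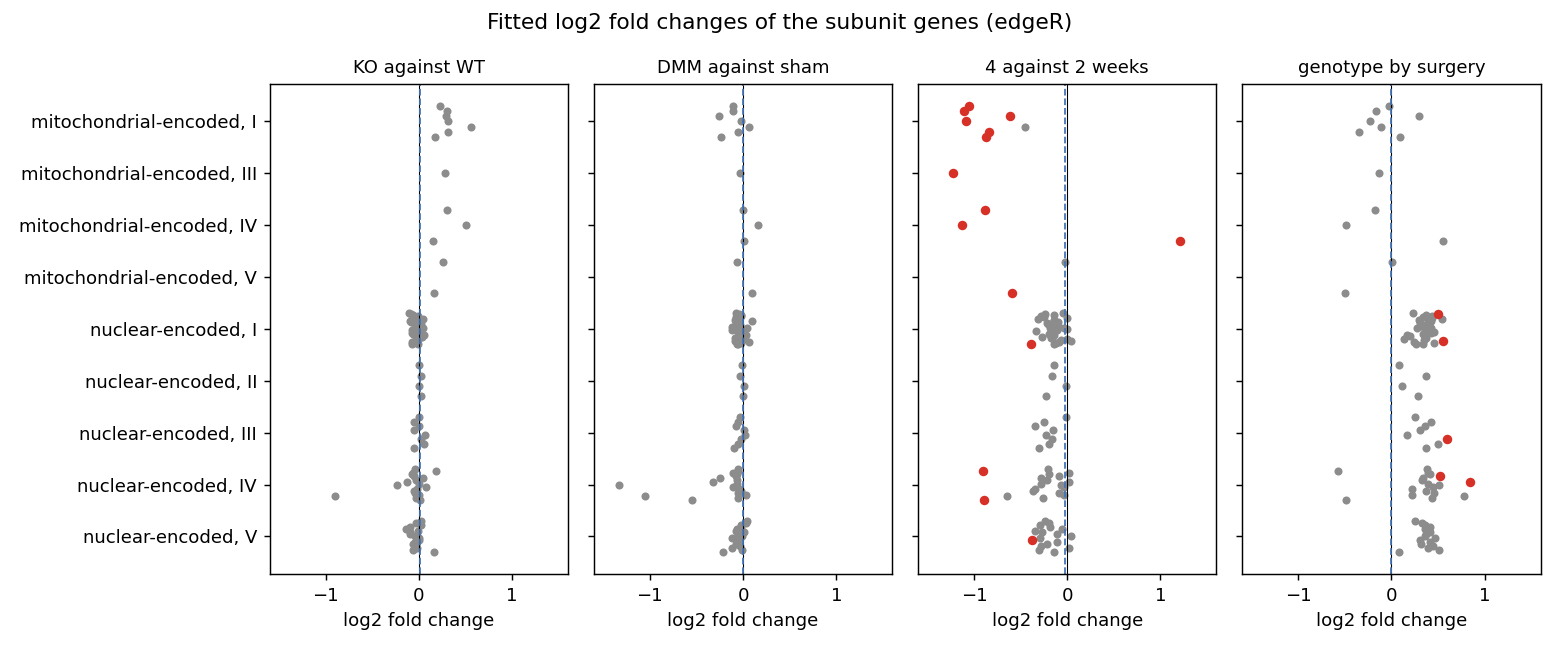
Fitted log2 fold changes (x axis) of every tested subunit gene by encoding genome and complex (rows) in the 4 edgeR tests, as deposited; red points have an adjusted p under 0.05, grey points do not, and the blue dashed line is the median of all 12538 genes. Mitochondrial-encoded genes lie left of 0 between weeks apart from mt-Co3 at 1.22, and nuclear-encoded genes cluster near 0.37 in the genotype by surgery test.

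Between genotypes, no member was called. The comparison asks whether loss of Oscar goes with another level of the respiratory chain over both surgeries and weeks. At 4 weeks a difference between genotypes cannot be told apart from a difference between lanes. edgeR called 0 of 94 members tested, where 0.0399% of all genes were called lower and 0.00798% higher. An unadjusted p under 0.05 was reached by 6 members and by 337 of all 12538 genes. The median log2 fold change was 0.29 for mitochondrial-encoded and -0.02 for nuclear-encoded members, beside 0.01 for all genes. With copies added, the mitochondrial-encoded median was 0.23. mt-Nd4l, a small membrane subunit of complex I, had the lowest p. Its level was 729, 1430, 1755 and 1722 TPM at 2 weeks and 1016, 804, 1204 and 1060 TPM at 4 weeks. As deposited it was higher in Oscar-/- than in WT in 4 of 4 pairs, and the log2 fold change was 0.56 (SE 0.13, unadjusted p = 0.00145, adjusted p = 1 by edgeR). DESeq2 called this gene (adjusted p = 0.0157), and it called 5 of all 12538 genes higher and 5 lower. With Gm10222 added, the level was higher in Oscar-/- in 3 of 4 pairs: the DMM pair of 4 weeks had 1763 TPM in WT and 1597 TPM in Oscar-/-, and the DMM pair of 2 weeks had 4324 and 4448 TPM. The log2 fold change of the sums was 0.42 (SE 0.17).

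For most mitochondrial-encoded genes the difference between genotypes lay in the sham libraries of 2 weeks. The log2 ratio of Oscar-/- to WT for mt-Cytb was 0.69 in sham and 0.09 in DMM at 2 weeks, and 0.21 in sham and -0.05 in DMM at 4 weeks. mt-Nd5 had 1.08 and -0.02 at 2 weeks and 0.14 and -0.10 at 4 weeks. The WT sham library of 2 weeks is the one with the highest hemoglobin share, and the part of that share in these ratios was not tested. Among nuclear-encoded members, Cox8b had the lowest p in the other direction (log2 fold change -0.90, SE 0.37, unadjusted p = 0.0367, adjusted p = 1 by edgeR), with 5 to 35 counts per library.

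Between surgeries, no member was called either, and 0% of all genes were called lower and 0% higher by edgeR. At an unadjusted p under 0.05 there were 4 members, all lower after DMM: Cox7a1, Cox8b, mt-Nd6 and Ndufa4l2. Of all 12538 genes tested, 805 had such a p, 320 of them lower and 485 higher. The medians were -0.03 for mitochondrial-encoded, -0.05 for nuclear-encoded members and 0.00 for all genes. With copies added, the mitochondrial-encoded median was -0.06. mt-Nd6 had a log2 fold change of -0.24 (SE 0.08, adjusted p = 0.554 by edgeR). With DESeq2 and with limma on log2(TPM + 1), 0 members were called as well. Over all 12538 genes, DESeq2 called 23 lower and 50 higher, and limma called 0 lower and 1 higher.

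Some members are isoforms that other tissues use in place of the common subunit. Of the 81 nuclear-encoded members past the filter, Cox8b, Cox7a1, Ndufa4l2 and Cox4i2 had the highest coefficients of variation on TPM (60.0, 50.1, 45.3 and 36.9%), ahead of Sdhc (21.6%), while Cox6b2 (19.6%) and Cox6a2 (16.8%) lay below Sdhc. The mitochondrial-encoded members had 21.6 to 60.6% as deposited. Cox7a1 and Cox8b are isoforms of heart, muscle and brown fat. Cox7a1 had 8.00, 2.25, 4.15 and 2.57 TPM at 2 weeks and 5.75, 3.38, 7.10 and 2.46 TPM at 4 weeks, from 10 to 41 counts. It was lower after DMM in 4 of 4 pairs, and the 4 sham libraries lay above the 4 DMM libraries. The log2 fold change was -1.33 (SE 0.33, unadjusted p = 0.00242, adjusted p = 0.286 by edgeR). Cox8b had 8.01, 3.18, 3.25 and 1.57 TPM at 2 weeks and 4.23, 2.48, 2.59 and 1.89 TPM at 4 weeks. It was likewise lower after DMM in 4 of 4 pairs, with overlapping ranges and a log2 fold change of -1.06 (SE 0.37, adjusted p = 0.551 by edgeR). Cox6a2, another muscle isoform, had 4.49 to 6.70 TPM with no such order.

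Markers of muscle are given beside these isoforms. In the surgery test, 320 of all 12538 genes were lower and 485 higher at an unadjusted p under 0.05. Of 11 skeletal muscle markers tested, 0 were called by edgeR, DESeq2 or limma and 7 were lower at an unadjusted p under 0.05, with a median log2 fold change of -1.05. Their summed level was 0.0078 to 0.0298% of TPM in sham and 0.0071 to 0.0159% in DMM libraries. It was lower after DMM in 3 of 4 pairs and higher in the WT pair of 4 weeks (0.0148% in sham, 0.0159% in DMM), where Cox7a1 and Cox8b were lower, and no marker was at 0 in all libraries. Ucp1 and Cidea, which define brown fat, reached at most 0.05 and 0.1 TPM. Of 4 tested fat markers, 0 were called by edgeR, DESeq2 or limma and 3 were higher at an unadjusted p under 0.05, with a median of 0.68, and their sums ran from 0.0201 to 0.0312% in sham and from 0.0269 to 0.0413% in DMM libraries. The part of muscle or fat RNA in these values was not tested.

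Cox4i2 and Ndufa4l2 are isoforms known to respond to low oxygen. Ndufa4l2 had 58.6, 43.2, 84.0 and 31.0 TPM at 2 weeks and 29.9, 35.9, 33.1 and 27.1 TPM at 4 weeks. The Oscar-/- sham library of 2 weeks was the highest and the Oscar-/- DMM library of 2 weeks lay within the 4-week range. The log2 fold change between weeks was -0.89 (SE 0.21, adjusted p = 0.0356 by edgeR), and the call was kept in 3 of 8 fits that left out 1 library. Cox4i2 had 11.4, 11.2, 19.01 and 11.8 TPM at 2 weeks and 5.77, 12.2, 8.26 and 7.51 TPM at 4 weeks. It too was highest in the Oscar-/- sham library of 2 weeks, and its log2 fold change between weeks was -0.90 (SE 0.23, adjusted p = 0.0469 by edgeR), kept in 1 of 8 such fits.

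The common partners of these genes were steadier. Ndufa4 had a mean of 296 TPM with a coefficient of variation of 5.7%, and Cox4i1 a mean of 351 TPM with 4.9%. Ndufa4l2 therefore held 14.8, 12.7, 22.6 and 9.57% of the sum with Ndufa4 at 2 weeks and 9.46, 10.96, 10.49 and 8.41% at 4 weeks. Cox4i2 held 1.47 to 5.44% of the sum with Cox4i1. The summed level of the 15 chondrocyte markers was 0.179, 0.122, 0.291 and 0.122% of TPM at 2 weeks and 0.120, 0.143, 0.180 and 0.104% at 4 weeks, with its highest value in the same Oscar-/- sham library, and its part in the isoform values was not tested.

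Cox6b2, a cytochrome c oxidase isoform best known from testis, was expressed here beside Cox6b1. Cox6b2 had 53.0, 33.8, 44.3 and 41.4 TPM at 2 weeks and 65.8, 48.4, 45.7 and 46.1 TPM at 4 weeks, which was 11.1 to 17.6% of the sum with Cox6b1. It lies at chr7:4751792-4753094, 1.14 Mb from Oscar (chr7:3609813-3616157).

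**Figure D4:**
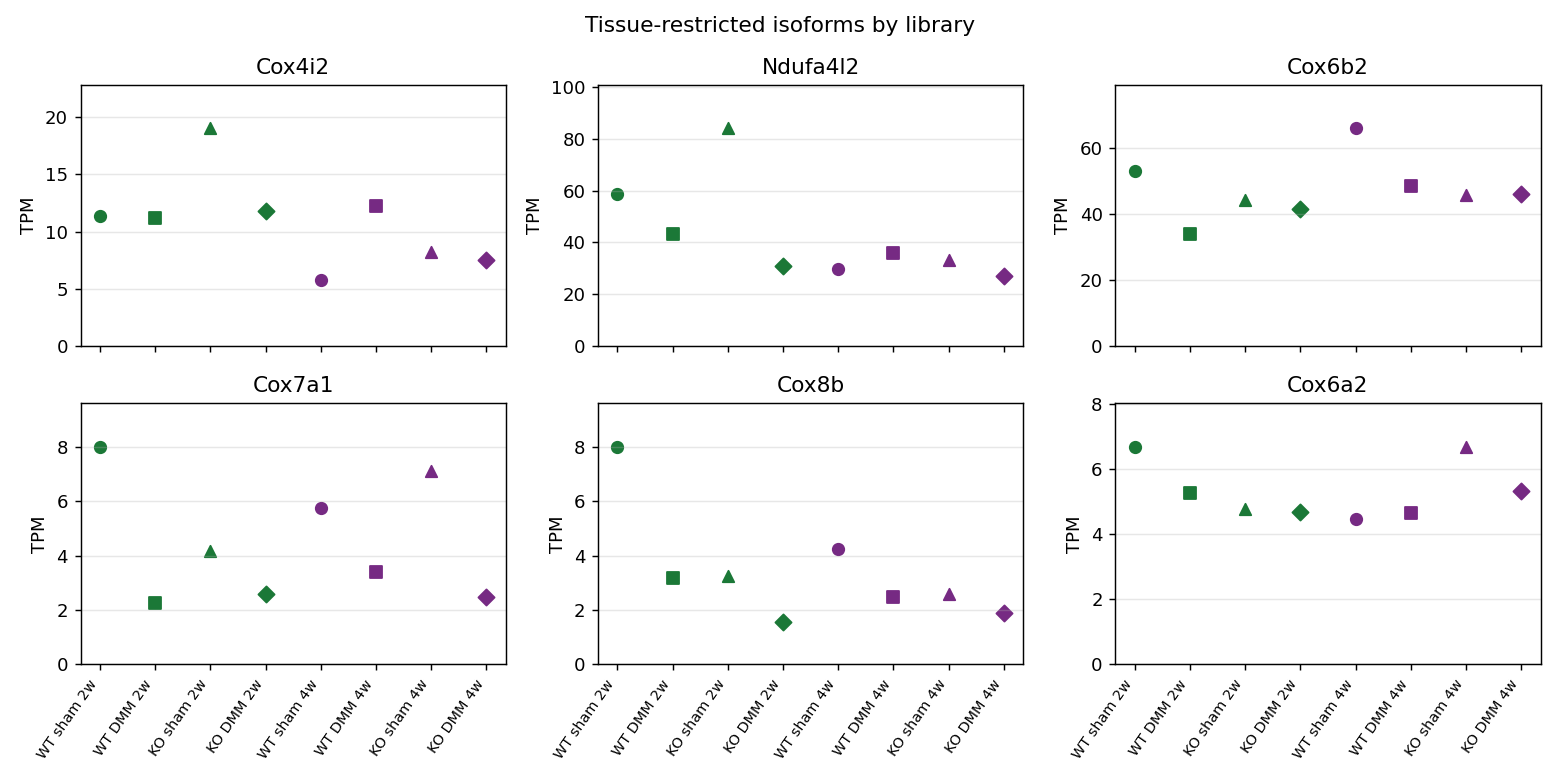
TPM of the 6 tissue-restricted isoforms of complex IV in each library, with the axes starting at 0 (green, 2 weeks; purple, 4 weeks; symbols give genotype and surgery). Cox4i2 and Ndufa4l2 are highest in the Oscar-/- sham library of 2 weeks (19.01 and 84.0 TPM), and Cox7a1 is lower in each DMM library than in every sham library.

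The genotype by surgery test asks whether the response to DMM differs between WT and Oscar-/- mice, with a term for the week. In edgeR, 5 of 94 members were called, all with a higher response in Oscar-/-, where 1.41% of all genes were called higher and 3.83% lower, and none was called lower. The 5 were Uqcrfs1, Cox6b2, Ndufs7, Cox6a1 and Ndufa10. Including these, 51 of 81 nuclear-encoded members had a positive value with an unadjusted p under 0.05, where 11% of all genes did. The median of the nuclear-encoded members was 0.37 on the log2 scale and that of the mitochondrial-encoded members -0.13, beside -0.01 for all genes. With copies added, the mitochondrial-encoded median was -0.07. Of the 81 nuclear-encoded members, 79 were above 0, and by complex the median was 0.37 in I, 0.20 in II, 0.36 in III, 0.39 in IV and 0.37 in V.

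These calls depended on the scale and on single libraries. On log2(TPM + 1), limma called 0 members, where it called 5 of all 12538 genes higher and 314 lower. The median of nuclear-encoded members was 0.07 there and that of all genes was -0.26. The nuclear-encoded members thus stood 0.33 above all genes on TPM and 0.38 above them on TMM-scaled counts. DESeq2 called 2 members, Uqcrfs1 (adjusted p = 0.0144) and Cox6a1 (adjusted p = 0.0212). Of all genes tested, it called 166 higher and 278 lower. Leaving out 1 library gave 0 to 65 calls: 65 without the WT sham library of 4 weeks, of which 62 were higher and 3 lower, and 0 without the Oscar-/- sham library of 2 weeks or any of the other 3 libraries of 4 weeks.

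Uqcrfs1 had 59.7, 57.3, 57.1 and 67.3 TPM at 2 weeks and 72.2, 64.7, 60.3 and 65.6 TPM at 4 weeks. DMM was lower than sham in WT and higher in Oscar-/- at both weeks, and the interaction was 0.60 on the log2 scale (SE 0.12, adjusted p = 0.0249 by edgeR). Cox6a1, the common isoform of that subunit of complex IV, had 329, 310, 305 and 334 TPM at 2 weeks and 399, 354, 327 and 335 TPM at 4 weeks. It followed the same order, with an interaction of 0.52 (SE 0.12, adjusted p = 0.0371 by edgeR). Ndufs7, which carries the iron-sulfur cluster N2 of complex I, had 54.6, 51.7, 49.9 and 55.4 TPM at 2 weeks and 75.7, 65.2, 61.5 and 62.1 TPM at 4 weeks, and an interaction of 0.55 (SE 0.13, adjusted p = 0.0371 by edgeR).

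Cox6b2 had the highest fitted value of the 5, 0.84 (SE 0.20, adjusted p = 0.0366 by edgeR), with a log2 ratio of DMM to sham on TPM of -0.65 (WT) and -0.10 (Oscar-/-) at the earlier time and of -0.44 (WT) and 0.01 (Oscar-/-) at the later. Ndufa10, an accessory subunit of complex I, had 32.1, 37.5, 38.4 and 34.4 TPM at 2 weeks and 48.3, 46.4, 31.6 and 42.3 TPM at 4 weeks. On TPM its response was lower in Oscar-/- than in WT at 2 weeks and higher at 4 weeks, so its interaction of 0.50 (SE 0.12, adjusted p = 0.0409 by edgeR) did not keep 1 direction on that scale.

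The study's own contrast of responses, here called DIF, is the log2 ratio of DMM to sham in Oscar-/- minus that in WT on TPM, taken at each week from 4 single libraries, with no test. At 2 weeks the median DIF was 0.11 for 81 nuclear-encoded members, -0.70 for the 13 mitochondrial-encoded members and -0.41 for all genes. At 4 weeks the medians were 0.01, -0.24 and -0.22. With copies added, the mitochondrial-encoded medians were -0.58 at 2 weeks and -0.21 at 4 weeks, with 0 of the 13 above 0 at either week. Of the nuclear-encoded members 60 of 81 were above 0 at 2 weeks, where 17.4% of all genes were, and 43 of 81 at 4 weeks, where 25% of all genes were. On TMM-scaled counts the median of all genes was -0.01 at 2 weeks and -0.02 at 4 weeks, that of the nuclear-encoded members 0.51 and 0.22, and that of the mitochondrial-encoded members -0.29 and -0.04. With 1 library exchanged for its counterpart of the other week, the mitochondrial-encoded median on TPM changed sign at 2 weeks for WT DMM (0.06) and at 4 weeks for WT sham (0.03) and Oscar-/- DMM (0.68).

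Among nuclear-encoded members with at least 50 counts in every library, Cox6b2 (0.55 at 2 weeks, counting SE 0.18; 0.46 at 4 weeks, counting SE 0.17), Uqcrfs1 (0.30 and 0.28) and Atp5s (-0.06 and 0.62) had the highest mean DIF. Ndufa4l2 (-0.997, counting SE 0.12, and -0.56, counting SE 0.15), Sdhc (-0.34 and -0.19) and Sdha (-0.35 and -0.15), the flavoprotein subunit of complex II, had the lowest. Ndufa4l2 fell after DMM in Oscar-/- at 2 weeks by 1.44 on the log2 scale, from the library in which it was highest. Cox4i2 had a lower mean DIF than these (-0.94), but its lowest count of 49 left it out of the ranking. Its DIF was -0.66 at 2 weeks (counting SE 0.25) and -1.22 at 4 weeks (counting SE 0.34).

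**Figure D5:**
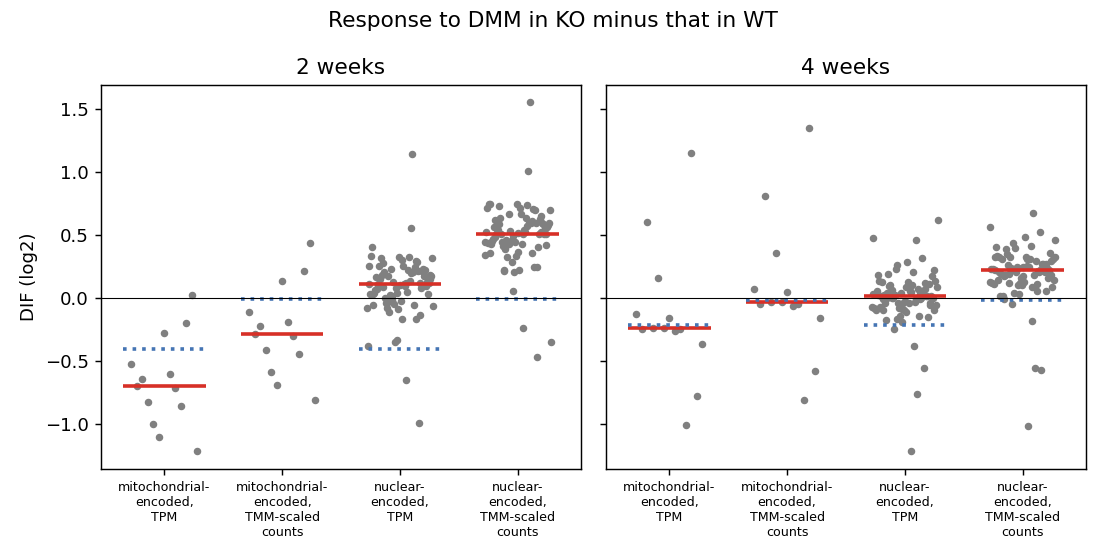
DIF (log2 ratio of DMM to sham in Oscar-/- minus that in WT) of every mitochondrial-encoded and nuclear-encoded subunit gene at 2 and 4 weeks, on TPM and on TMM-scaled counts; grey points are genes, red bars their medians and blue dotted bars the medians of all genes. The nuclear-encoded median lies above that of all genes in each column, at 0.11 against -0.41 on TPM at 2 weeks and at 0.01 against -0.22 at 4 weeks.

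Markers of other cells moved in the same test. Called lower were 7 of 10 fibroblast, 4 of 8 osteoblast, 4 of 6 endothelial and 3 of 14 chondrocyte markers. Called higher were 2 of 11 erythroid and 1 of 11 skeletal muscle markers. The fibroblast sum was 0.0845, 0.212, 0.162 and 0.163% of TPM at 2 weeks and 0.0833, 0.186, 0.126 and 0.1001% at 4 weeks, higher after DMM in WT at both weeks, while the Oscar-/- pair was level at 2 weeks and lower after DMM at 4 weeks. Its members were not alike, as Col3a1 (type III collagen) was higher after DMM in 4 of 4 pairs. The hemoglobin share was 37.7, 30.7, 32.4 and 34.5% at 2 weeks and 29.6, 31.0, 26.5 and 37.0% at 4 weeks. Their part in the values of the nuclear-encoded subunits was not tested. Of 78 mitochondrial ribosomal proteins 0 were called by edgeR, DESeq2 or limma, with 33 higher at an unadjusted p under 0.05, beside the 11% of all genes, and a median of 0.32. Of 13 TCA cycle enzymes 0 were called by any of the 3 tools, with 3 at an unadjusted p under 0.05 and a median of 0.18. Of all 12538 genes, 3029 had such a p, 1379 of them higher.

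The promoters of the nuclear-encoded members were searched for the sites of known regulators of respiratory genes. RefSeq promoters of GRCm38.p6, from 250 bases before to 50 bases after the start, matched 65 of the 83 genes (70 windows). The letters GCATGCG, the core of the palindromic NRF1 motif, were in 15.7% of the member windows on either strand and in 3.58% of all 32851 promoters. The ETS family motif CCGGAAG, on either strand, was in 22.9% and 8.86%, and a match to one cannot be a match to the other. Both are matches of letters and not measured binding. Cox6a1 was among the 11 member genes with the NRF1 letters and the 16 with the ETS letters. Uqcrfs1, Cox6b2, Ndufs7 and Ndufa10, also called in the genotype by surgery test, were in neither list, though some members had no window. The Cox6a1 promoter shows the NRF1 letters in capitals, where the matches on both strands overlap (chr5:115348909-115349208, minus strand, 5′ to 3′). Its ETS letters are not marked.
Cox6a1 promoter: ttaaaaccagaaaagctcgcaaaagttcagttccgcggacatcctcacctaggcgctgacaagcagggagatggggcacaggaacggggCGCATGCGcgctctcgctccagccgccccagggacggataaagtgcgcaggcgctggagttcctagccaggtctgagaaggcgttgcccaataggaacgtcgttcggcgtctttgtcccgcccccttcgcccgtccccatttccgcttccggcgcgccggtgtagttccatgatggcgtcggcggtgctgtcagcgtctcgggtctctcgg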

How the data were processed

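Per the labels and the study's methods, RNA was extracted with Trizol and a column clean-up, and libraries were made with a stranded mRNA kit and sequenced in pairs. The authors trimmed reads, aligned them with STAR 2.6.0a and quantified genes with RSEM 1.2.17, and the submitters' notes also name FastQC 0.11.8 and a human build, although the identifiers are mouse (52403 of 52636 matched GENCODE M21). The deposited expected counts are RSEM's estimated counts per gene, with reads that match several places divided between them, and the deposited TPM values are per transcript length and scaled to the same total in each library. Members and lists were chosen with earlier results of these data known. Expected counts were rounded and tested with edgeR 4.0.16 (quasi-likelihood, TMM, terms for genotype, surgery and week, plus genotype by surgery where tested) over 12538 protein-coding genes with TPM over 1 in at least 1 library. Calls are adjusted p under 0.05. SEs were derived from the fold change and its F statistic. Whole combinations of animals were pooled, so the spread between mice was not measured. Copies were found with BLAST 2.17.0 (at least 98% identity over 150 bases and 50% of the shorter transcript). Alternatives were DESeq2 1.42.0, limma 3.58.1 on log2(TPM + 1) and log2(TPM + 0.1), other scalings and filters, each library left out, and each week alone. The edgeR script was tested on simulated data. Genes named were all mitochondrial-encoded members, the highest and lowest nuclear-encoded member of each complex, up to 3 members of lowest p per direction and test, the 3 highest and lowest in DIF, and the isoform pairs. Ndufa7 (surgery, log2 fold change 0.10), Ndufs8 (surgery, 0.06), Ndufa1 (genotype, -0.10), Atp5e (genotype, -0.14) and Atp5g3 (week, 0.04) were named by the same rule, none with an unadjusted p under 0.05. Sdhc was also named for its levels by week after its values were seen.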

Additional observations from a re-analysis of the deposited data

Results flagged for a closer look

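A difference between genotypes in the response to surgery, tested as an interaction in edgeR, was found for Ndufa10 (0.50 on the log2 scale), Ndufs7 (0.55), Uqcrfs1 (0.60), Cox6a1 (0.52) and Cox6b2 (0.84). On log2(TPM + 1) limma called none of them, with Uqcrfs1 at 0.28 (adjusted p = 0.492), Cox6b2 at 0.49 (adjusted p = 0.259), Ndufs7 at 0.23 (adjusted p = 0.59), Cox6a1 at 0.21 (adjusted p = 0.613) and Ndufa10 at 0.04 (adjusted p = 0.937). That limma fit called 5 of all 12538 genes higher and 314 lower.

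Genes outside the members held most reads of some mitochondrial transcripts. The copies had mean levels over 8 libraries of 13111 TPM (Gm10925, copy of mt-Atp6), 12562 TPM (Gm29216, copy of the end of mt-Co1), 15702 TPM (Gm28661, copy of mt-Co2), 13440 TPM (Gm28437, copy of mt-Co3), 2956 TPM (Gm28438, copy of mt-Nd3) and 1668 TPM (Gm10222, copy of mt-Nd4l). Among them these 6 copies and Gm28439 held 4.07 to 8.34% of all TPM in a library, beside 3.80 to 7.87% on the 13 mitochondrial genes themselves.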

How the results depend on the processing

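No paired analysis was possible because the labels give no replicate numbers; the pairs counted in the report are libraries alike in the other 2 factors, which the additive model also holds as terms. Of 243 recomputed values, 196 stayed on their side of the threshold or within the spread, and no median, ratio or share for the week changed sign except the nuclear-encoded median. Between weeks, the 15 calls became 6 (5 lower, 1 higher) with limma on log2(TPM + 0.1) and 6 to 17 with 1 library left out: 9 without either WT library of 2 weeks, 8 without either Oscar-/- sham library and 6 without WT sham of 4 weeks. With limma on log2(TPM + 1) and log2(TPM + 0.1), the mitochondrial-encoded week median was -0.67 and -0.67 and the nuclear-encoded one 0.084 and 0.084. With copies added, the mitochondrial-encoded week median was -1.03 with edgeR and -0.79 with limma on log2(TPM + 1). The 5 interaction calls became 1 over genes of all types, 2 with DESeq2, 0 with limma at either pseudocount, and 0 to 65 with 1 library left out. The interaction medians with limma were -0.43 and -0.43 (mitochondrial-encoded) and 0.065 and 0.066 (nuclear-encoded). With edgeR and 1 library left out, the mitochondrial-encoded interaction median was -0.272 to -0.028. DESeq2 called 1 member by genotype, the 2-week libraries alone 1 by surgery, and the 4-week libraries alone gave a mitochondrial-encoded surgery median of -0.13. The median DIF of mitochondrial-encoded members was -0.29 at 2 weeks and -0.038 at 4 weeks on TMM-scaled counts, -0.046 at 4 weeks on TPM without mitochondrial-encoded and hemoglobin genes, and, with each library in turn exchanged for its counterpart at the other time, -1.56 to 0.059 at 2 weeks and -1.02 to 0.68 at 4 weeks; that of nuclear-encoded members at 2 weeks was 0.51 on TMM-scaled counts. The change of the mitochondrial-encoded share from 2 to 4 weeks, -2.73 percentage points, was -4.32 without hemoglobin genes and -6.14 with copies added. For all of these the cause was not tested.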

Other observations

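The mitochondrial ribosomal RNAs were not members and stood apart from the messages in 1 library. mt-Rnr1 had 1282 TPM and mt-Rnr2 1265 TPM in the Oscar-/- sham library of 4 weeks, where the other 7 libraries had 479 to 679 TPM and 396 to 578 TPM. In that library the mitochondrial-encoded messages held 4.65% of TPM, the highest share of the 4-week libraries. These libraries were selected for polyadenylated RNA, so the values are of the part of the ribosomal RNA that was captured.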
